A study of Homo sapiens with 6 samples.

Results

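In a pooled screen of HS-SY-II cells, 68 guide RNAs became rare in both tumours while they stayed present in both cultures. Counts of each guide were divided by the total of their library to give CPM, a share of the library on a common scale, and each CPM was divided by the mean CPM of the same guide in the 2 day 0 libraries. This ratio is 1 where a guide takes the same share of the library as at day 0. A guide was selected when its mean day 0 count was at least 30, its ratio was under 0.25 in each tumour library and its ratio was at least 0.5 in each day 14 culture library. Of 3653 guides in the count table, 3607 passed the count limit, 3424 of them directed at 348 genes and 183 non-targeting, and 68 met the rule. They lay in 59 genes. The selection used all 6 libraries, so the ratios of these guides are given as a description and not as a test.

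HS-SY-II cells come from a human synovial sarcoma with the SS18::SSX1 fusion. A line of them that expresses Cas9 received the guide library by lentivirus, at an efficiency that leaves most cells with 1 guide, and was selected with puromycin. Part of the cells was frozen as the day 0 reference, part was kept in culture for 14 days, and part was placed in Matrigel under the flank skin of athymic nude mice and taken as tumours (cell line-derived xenografts) once these had grown, with 2 libraries each. By the methods each in vivo replicate used 4 mice, and how many tumours entered a library was not stated, so tumour 1 and tumour 2 here name the in vivo libraries. The library was designed against genes on which synovial sarcoma lines depend more than other lines in public dependency data. All groups share the Cas9 line, the library and the selection, and the hosts lack most T cells. The labels number the tumours 1 and 2, whereas a display in the study's supplement names both as mice of the first transduction, so they may come from 1 transduction. Every p-value therefore measures only the spread between these libraries.

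A guide directs Cas9 to a matching stretch of DNA, and repair of the cut often disables the gene. When the gene is needed for growth, cells with that guide are outgrown and its share of the library falls. A tumour asks for more than a dish does, since cells must survive transplantation, attach, obtain oxygen and nutrients from a host and grow in a solid mass. Non-targeting guides match no gene and show how far shares move when no gene is cut.

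The libraries held 3394352 to 21854232 counts (a mean of 929 to 5983 for each guide), with day 0 replicate 1 the largest. All ratios of a guide share the same day 0 counts. For 15 of the 68 guides the CPM of the day 0 libraries lay more than 2-fold apart, and 38 would pass against each day 0 library taken alone. In 2 guides a day 0 library held fewer than 30 counts, and 1 of them targets SFTPC, the surfactant protein C of the lung. The guide sgRNA_1077 was counted 0 and 62 times at day 0, 38 and 44 times at day 14, and 0 and 6 times in vivo, with culture ratios of 1.63 and 1.58 and tumour ratios of 0 and 0.103. It was missing from day 0 replicate 1 although that was the deepest library. Without both guides 66 remained. The lowest day 0 counts of those 66 were 343 in replicate 1 and 100 in replicate 2.

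None of the 183 non-targeting guides met the rule, which allows a share of up to 1.64% (3 guides of 183) or, by the exact Clopper-Pearson 95% interval, up to 2.00%. Of the 3424 targeting guides, 68 did, or 1.99% (interval by the same method 1.55 to 2.51%). The intervals overlap, which is no test of a difference, and the difference between the shares was not tested. Such intervals cover only the counting of guides. The non-targeting guide that came nearest, sgRNA_3527, had 5757 and 1522 counts at day 0, 1280 and 1717 in culture and 369 and 1199 in the tumours, so its tumour ratios were 0.276 and 0.468. The next, sgRNA_3562 and sgRNA_3560, had tumour ratios of 0.434 and 0.491, and of 0.504 and 0.457. Each of the 3 was above the limit in both tumours. Single tumours did lose such guides. Of 180 non-targeting guides kept in both cultures, 5 were under 0.25 in tumour 1 (2.78%) and 8 in tumour 2 (4.44%), and none in both.

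Loss from 1 tumour only was more common than loss from both. Of 2413 targeting guides kept in both cultures, 224 (9.28%) were under 0.25 in tumour 1 and 245 (10.2%) in tumour 2, and the 68 are the guides these groups share. They make up 30.4% of the first group and 27.8% of the second. With tumour 2 as the only tumour, 253 guides would have been selected, 8 of them non-targeting, and with tumour 1 alone 229, of which 5 were non-targeting. With day 14 replicate 1 left out the number was 127, and without day 14 replicate 2 it was 109. Left without a day 0 library, the count was 79 without replicate 1 and 63 without replicate 2, of which 55 and 46 were among the 68.

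The rule used the values that follow. In culture the 68 guides had median ratios of 0.785 and 0.841, and in the tumours of 0.134 and 0.126. The medians of all targeting guides were 0.955 and 0.929 in culture and 0.619 and 0.592 in the tumours, and those of the non-targeting guides 1.46, 1.41, 1.06 and 0.882. In culture, then, the selected guides lay a little below the usual targeting guide and well below the usual non-targeting guide. Of the 68, 12 lay above their day 0 mean in both cultures, 14 in 1 culture and 42 in neither. The tumour counts ran from 0 to 361 in tumour 1 (median 118.5) and from 0 to 836 in tumour 2 (median 195.5). Both tumour ratios were under 0.05 in 6 guides and under 0.02 in 5. In 33 of 68 the lower value was in tumour 1. The tumours differed more than 4-fold in 23 guides, 10 of them lower in tumour 1 and 13 lower in tumour 2, so how far a guide fell was often not shared between them.

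Near the tumour limit, the larger tumour ratio was 0.248 for GPC1 sgRNA_2778, 0.243 for GPC1 sgRNA_2776, 0.242 for NIPAL2 sgRNA_774, and 0.235 for ADO sgRNA_3060 and MYO18A sgRNA_755. Just outside it were guides against KIAA1324L (0.252), ARHGAP27P1-BPTFP1-KPNA2P3 (0.254), DKK4 (0.256), CPD (0.257) and PIK3C2B (0.261). At the culture limit the smaller culture ratio was 0.501 for C8orf82 sgRNA_2555, 0.504 for ORAI2, 0.508 for SMAD9, 0.516 for RBM23 and 0.520 for BACE1. Guides against SELENOO (0.496), C4orf48 (0.491), KIAA1324L (0.482), TES (0.482) and CD27 (0.482) fell just short. There was no gap in the ratios at either limit.

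The 68 belong to a larger group of 457 guides lost from both tumours, 456 targeting and 1 non-targeting. Of these, 152 were also under 0.25 in both cultures and 237 lay in between in culture. The 152 had median ratios of 0.0752 and 0.0602 in culture and of 0.0197 and 0.00989 in the tumours. The 237 had 0.336 and 0.346 in culture and 0.0783 and 0.0896 in the tumours. The selected guides, at 0.134 and 0.126, were thus less depleted in the tumours than either of the other groups.

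Among targeting guides, the share lost from both tumours went down as the smaller of the 2 culture ratios went up. It was 60.4% of the 437 guides below 0.25 in culture, 21.6% of 574 between 0.25 and 0.5, 6.27% of 606 between 0.5 and 0.75 and 3.01% of 598 between 0.75 and 1. From 1 to 1.5 it was 0.892% of 897 guides (exact interval 0.386 to 1.75%) and above 1.5 it was 1.28% of 312 (0.350 to 3.25%). The selected guides are the last 4 of these classes, and 38 of the 68 sat in the class just above the limit, with 18, 8 and 4 in the classes that follow. The median tumour ratio climbed along the same classes, from 0.487 and 0.494 between 0.5 and 0.75 to 1.26 and 1.28 above 1.5.

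The guide numbers follow the gene names in alphabetical order up to 1495 and not after it, which divides the library into a first and a second set. The first held 15 of the 68 guides, out of 1492 kept targeting guides (1.01%, interval 0.564 to 1.65%), and the second 53 of 1932 (2.74%, interval 2.06 to 3.57%). Second set guides were lost more often in general. In both tumours 52 of 1492 first set guides were lost (3.49%) and 404 of 1932 second set guides (20.9%), and in both cultures 15 (1.01%) and 174 (9.01%). Of guides kept in both cultures there were 1387 in the first set and 1026 in the second. All non-targeting guides are in the second set. By number, the share of 2.74% is that of the set which also holds their 0 of 183 (exact interval up to 2.00%). That difference was not tested either. The sets rest on guide numbers alone, and whether non-targeting and second set targeting guides are otherwise alike was not tested. Of the 53 second set guides, 44 lay among 1457 directed at genes with guides in both sets, and 9 among 475 directed at the 49 genes with second set guides only.

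The selected guides also began at lower counts. Their median day 0 level was 186 CPM, against 253 for targeting and 273 for non-targeting guides. When the 3424 targeting guides were ordered by day 0 CPM and divided into 4 classes of 856, the classes from lowest to highest held 31, 17, 15 and 5 selected guides (3.62, 1.99, 1.75 and 0.584%). Loss from either tumour followed the same order, at 43.1, 36.2, 30.5 and 22.7% of the guides. Loss from both tumours with a kept culture was thus recorded most often where the guide had a low share of the day 0 counts. The part of that in the selection was not tested.

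Of the 348 genes, 289 had no selected guide, 52 had 1, 5 had 2 and 2 had 3. The genes with 2 or more were ADO, GPC1, MYO18A, BCL10, C8orf82, CLTB and MEIOC, each with 9 or 10 kept guides. In 2 of them, ADO and MYO18A, the guides came from both sets. No gene reached 4. Scaling by TMM, which sets libraries to a common level of the typical guide, left 3 genes with 2 or more (ADO, BCL10 and C8orf82), scaling to the non-targeting guides gave 2 (BCL10, with 1 guide exchanged, and PAOX), and the normalized table of the authors left 0.

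ADO had 3 selected guides of 10. The gene (chr10:62804720-62808479 in GRCh38.p14) encodes a thiol dioxygenase that uses oxygen to oxidise cysteamine and amino-terminal cysteines. sgRNA_33 had 3160 and 175 counts at day 0, 209 and 343 in culture and 4 and 70 in the tumours, which gave ratios of 0.672 and 0.924 in culture and of 0.00979 and 0.0895 in the tumours. The guide sgRNA_35 was counted 612 and 135 times at day 0, 52 and 234 times at day 14, and 2 and 1 times in vivo, with culture ratios of 0.53 and 2.00 and tumour ratios of 0.0155 and 0.00405. For sgRNA_3060 the day 0 counts were 3965 and 412, the culture counts 343 and 1007 (ratios 0.742 and 1.82) and the tumour counts 143 and 12 (ratios 0.235 and 0.0103). Each of the 3 lay between 0.00405 and 0.235 in the tumours while at least 1 culture was close to or above the day 0 share. For sgRNA_33 the day 0 libraries stood at 1.58 and 0.422 of their mean, the widest split of the 3. sgRNA_31 held 8518 and 1751 counts at day 0, 1453 and 1131 in culture and 608 and 1882 in the tumours. sgRNA_32 held 6447 and 636 counts at day 0, 988 and 665 in culture and 184 and 1675 in the tumours. sgRNA_34 held 5121 and 1086 counts at day 0, 613 and 743 in culture and 224 and 667 in the tumours. Their tumour ratios were 0.351 and 0.568, 0.189 and 0.901, and 0.212 and 0.33, so sgRNA_32 and sgRNA_34 crossed the limit in tumour 1 alone. sgRNA_3056 held 28824 and 3739 counts at day 0, 2110 and 3497 in culture and 3054 and 5043 in the tumours. sgRNA_3057 held 6563 and 1280 counts at day 0, 767 and 839 in culture and 589 and 1515 in the tumours. sgRNA_3058 held 3170 and 960 counts at day 0, 659 and 581 in culture and 470 and 1122 in the tumours. These lay at 0.639 and 0.551, 0.453 and 0.609, and 0.59 and 0.736. sgRNA_3059 held 2417 and 613 counts at day 0, 496 and 326 in culture and 568 and 1959 in the tumours. It was the 1 ADO guide above its day 0 share in both tumours (1.04 and 1.87). The 7 other guides had median tumour ratios of 0.453 and 0.609, against 0.619 and 0.592 for all targeting guides, and no ADO guide was lost in both cultures.

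GPC1 also had 3 of 10, all in the second set. The gene (chr2:240435663-240468076) encodes glypican 1, a heparan sulphate proteoglycan tethered to the cell surface that binds growth factors. sgRNA_2776 had 2206 and 405 counts at day 0, 185 and 267 in culture and 103 and 178 in the tumours, which gave ratios of 0.572 and 0.692 in culture and of 0.243 and 0.219 in the tumours. The guide sgRNA_2778 was counted 5126 and 902 times at day 0, 845 and 618 times at day 14, and 228 and 459 times in vivo, with culture ratios of 1.15 and 0.703 and tumour ratios of 0.236 and 0.248. For sgRNA_2779 the day 0 counts were 2162 and 873, the culture counts 408 and 910 (ratios 0.823 and 1.54) and the tumour counts 10 and 181 (ratios 0.0154 and 0.145). Of the 3, sgRNA_2776 and sgRNA_2778 sat just under the tumour limit, and sgRNA_2779 fell furthest, in tumour 1. sgRNA_2777 held 3314 and 503 counts at day 0, 475 and 493 in culture and 163 and 1300 in the tumours. sgRNA_2780 held 3479 and 403 counts at day 0, 175 and 261 in culture and 132 and 679 in the tumours. In tumour 1 these were close to the limit (0.278 and 0.238), and in tumour 2 they were not (1.16 and 0.641). sgRNA_496 held 7868 and 2618 counts at day 0, 2049 and 3309 in culture and 698 and 3306 in the tumours. sgRNA_497 held 3995 and 627 counts at day 0, 925 and 638 in culture and 295 and 688 in the tumours. sgRNA_498 held 19337 and 2622 counts at day 0, 2511 and 2097 in culture and 1680 and 4650 in the tumours. All 3 were above 0.5 in tumour 2. sgRNA_499 held 11372 and 2679 counts at day 0, 3012 and 4637 in culture and 3572 and 7441 in the tumours. sgRNA_500 held 6660 and 1724 counts at day 0, 1596 and 1396 in culture and 1271 and 3430 in the tumours. The first set guides had tumour 1 ratios from 0.334 (sgRNA_496) to 1.44 (sgRNA_499) and tumour 2 ratios from 0.502 (sgRNA_497) to 1.57 (sgRNA_499).

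MYO18A had 2 of 9 kept guides. The gene (chr17:29071122-29180398) encodes an unconventional myosin that links the Golgi apparatus to actin. sgRNA_755 had 1277 and 642 counts at day 0, 470 and 301 in culture and 105 and 126 in the tumours, which gave ratios of 1.38 and 0.741 in culture and of 0.235 and 0.147 in the tumours. The guide sgRNA_2787 was counted 6618 and 1224 times at day 0, 718 and 640 times at day 14, and 241 and 279 times in vivo, with culture ratios of 0.738 and 0.551 and tumour ratios of 0.189 and 0.114. Both were moderate losses, of similar size in both tumours. sgRNA_751 held 8159 and 2148 counts at day 0, 2831 and 2498 in culture and 1919 and 2414 in the tumours. sgRNA_752 held 5972 and 1133 counts at day 0, 1418 and 1181 in culture and 468 and 1057 in the tumours. sgRNA_753 held 626 and 0 counts at day 0, 0 and 0 in culture and 1 and 2 in the tumours. The last of these was absent from day 0 replicate 2 and from both cultures, so it rests on day 0 replicate 1 alone. sgRNA_2786 held 5754 and 464 counts at day 0, 337 and 384 in culture and 1146 and 12 in the tumours. sgRNA_2788 held 3863 and 836 counts at day 0, 767 and 477 in culture and 247 and 809 in the tumours. sgRNA_2789 held 6975 and 2156 counts at day 0, 399 and 146 in culture and 540 and 524 in the tumours. The tumours disagreed most on sgRNA_2786, at 1.41 and 0.00769. sgRNA_2790 held 5578 and 971 counts at day 0, 1236 and 1123 in culture and 980 and 15476 in the tumours. That guide expanded in tumour 2, to 7.72 times its day 0 share, and stood at 0.936 in tumour 1.

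BCL10 had 2 of 10, both in the second set. The gene (chr1:85265776-85276632) encodes an adaptor that carries receptor signals to NF-kB. sgRNA_1868 had 7979 and 1487 counts at day 0, 1066 and 995 in culture and 269 and 492 in the tumours, which gave ratios of 0.905 and 0.708 in culture and of 0.174 and 0.166 in the tumours. The guide sgRNA_1870 was counted 2590 and 521 times at day 0, 526 and 496 times at day 14, and 90 and 62 times in vivo, with culture ratios of 1.33 and 1.05 and tumour ratios of 0.173 and 0.0622. Of both, sgRNA_1870 was above its day 0 share in each culture. sgRNA_1866 held 5102 and 384 counts at day 0, 415 and 990 in culture and 7 and 392 in the tumours. sgRNA_1867 held 3052 and 1394 counts at day 0, 1029 and 1091 in culture and 1393 and 1235 in the tumours. sgRNA_1869 held 7739 and 1215 counts at day 0, 408 and 691 in culture and 248 and 1019 in the tumours. Here sgRNA_1866 (0.00986 and 0.289) and sgRNA_1869 (0.179 and 0.384) were under the limit in tumour 1 and above it in tumour 2. sgRNA_101 held 3382 and 1101 counts at day 0, 1252 and 1265 in culture and 493 and 1302 in the tumours. sgRNA_102 held 2091 and 1095 counts at day 0, 704 and 1272 in culture and 1831 and 1017 in the tumours. sgRNA_103 held 3557 and 1059 counts at day 0, 1690 and 1225 in culture and 1078 and 16339 in the tumours. The last grew to 9.65 times its day 0 share in tumour 2. sgRNA_104 held 6017 and 1053 counts at day 0, 788 and 1543 in culture and 2829 and 2445 in the tumours. sgRNA_105 held 5865 and 1434 counts at day 0, 1122 and 1273 in culture and 794 and 2583 in the tumours. None of the 5 first set guides was under 0.5 in either tumour. Both selected guides passed under TMM, and sgRNA_1870 was the BCL10 guide that passed under all 4 scalings. With scaling to the non-targeting guides sgRNA_1868 stood at 0.498 in day 14 replicate 2 and failed, while sgRNA_1866, at 0.233 in tumour 2, passed.

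C8orf82 had 2 of 10, and most of its remaining guides were low in the tumours as well. The gene lies near the end of chromosome 8 (chr8:144525733-144529111), and all of its guides are in the second set. sgRNA_2555 had 6514 and 1022 counts at day 0, 573 and 532 in culture and 189 and 96 in the tumours, which gave ratios of 0.644 and 0.501 in culture and of 0.162 and 0.0429 in the tumours. The guide sgRNA_3388 was counted 1727 and 408 times at day 0, 231 and 317 times at day 14, and 5 and 51 times in vivo, with culture ratios of 0.804 and 0.924 and tumour ratios of 0.0133 and 0.0706. In the tumours 6 of the 10 guides were lost in both, and 1 also in both cultures. sgRNA_2553 held 5019 and 659 counts at day 0, 191 and 342 in culture and 21 and 345 in the tumours. sgRNA_2554 held 3042 and 597 counts at day 0, 215 and 103 in culture and 4 and 59 in the tumours. sgRNA_3387 held 2367 and 931 counts at day 0, 217 and 441 in culture and 89 and 175 in the tumours. These 3 were lost from both tumours and missed the rule in culture, at 0.30 and 0.45, 0.467 and 0.187, and 0.407 and 0.693. sgRNA_3390 held 3448 and 611 counts at day 0, 90 and 94 in culture and 27 and 12 in the tumours. sgRNA_2551 held 5458 and 952 counts at day 0, 333 and 389 in culture and 181 and 549 in the tumours. sgRNA_2552 held 8204 and 844 counts at day 0, 258 and 730 in culture and 787 and 559 in the tumours. In culture they stood at 0.181 and 0.158, 0.426 and 0.417, and 0.27 and 0.641. sgRNA_3389 held 20062 and 3446 counts at day 0, 462 and 1317 in culture and 384 and 2613 in the tumours. sgRNA_3391 held 6584 and 942 counts at day 0, 234 and 598 in culture and 57 and 2760 in the tumours. Of all 10 guides the median ratio was 0.353 and 0.475 in culture and 0.0764 and 0.173 in the tumours. The C8orf82 guides therefore ran below the day 0 share in culture too, and its 2 selected guides are the ones that stayed above 0.5 there in both.

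CLTB had 2 of 10. The gene (chr5:176392455-176416569) encodes a light chain of clathrin, which coats vesicles that take up material at the cell surface. sgRNA_3141 had 7163 and 1904 counts at day 0, 718 and 890 in culture and 271 and 29 in the tumours, which gave ratios of 0.565 and 0.587 in culture and of 0.162 and 0.00908 in the tumours. The guide sgRNA_3144 was counted 5518 and 1807 times at day 0, 912 and 1687 times at day 14, and 312 and 639 times in vivo, with culture ratios of 0.824 and 1.28 and tumour ratios of 0.215 and 0.23. The first fell much further in tumour 2 than in tumour 1, and the second stood at a similar level in both. sgRNA_279 held 3060 and 978 counts at day 0, 325 and 245 in culture and 13 and 62 in the tumours. sgRNA_280 held 7889 and 1243 counts at day 0, 514 and 843 in culture and 2047 and 433 in the tumours. sgRNA_3143 held 3894 and 536 counts at day 0, 1133 and 302 in culture and 329 and 322 in the tumours. Guide sgRNA_279 was lost from both tumours (0.0164 and 0.0408) with a culture ratio of 0.339 in replicate 2, under the culture limit. sgRNA_276 held 15916 and 2750 counts at day 0, 2938 and 3335 in culture and 14302 and 4485 in the tumours. sgRNA_277 held 3391 and 1049 counts at day 0, 1368 and 1243 in culture and 841 and 3484 in the tumours. sgRNA_278 held 1978 and 500 counts at day 0, 637 and 697 in culture and 174 and 2530 in the tumours. All 3 were above 1 in both cultures, and they reached 4.8 (sgRNA_276, tumour 1), 2.11 (sgRNA_277, tumour 2) and 2.95 (sgRNA_278, tumour 2) at their highest. sgRNA_3142 held 8855 and 1734 counts at day 0, 2179 and 1933 in culture and 2425 and 1275 in the tumours. sgRNA_3145 held 7343 and 1450 counts at day 0, 833 and 1109 in culture and 1491 and 2091 in the tumours. Guides against CLTB thus went both ways in the tumours.

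MEIOC, a gene of meiosis in germ cells (chr17:44656468-44677087), was the last with 2 of 10. sgRNA_2817 had 3745 and 371 counts at day 0, 225 and 285 in culture and 47 and 7 in the tumours, which gave ratios of 0.523 and 0.555 in culture and of 0.0832 and 0.00648 in the tumours. The guide sgRNA_2820 was counted 2194 and 317 times at day 0, 416 and 534 times at day 14, and 8 and 156 times in vivo, with culture ratios of 1.44 and 1.55 and tumour ratios of 0.0211 and 0.214. They lost most in different tumours, sgRNA_2817 in tumour 2 and sgRNA_2820 in tumour 1, although sgRNA_2820 was above its day 0 share in both cultures. The 8 other MEIOC guides had median ratios of 0.399 and 0.384 in the tumours.

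The other guides against the 59 genes had about the tumour values of guides against the remaining genes. In both tumours 60 of these 513 guides were lost (11.7%), and of 2843 guides against genes with no selected guide 328 were (11.5%). Median tumour ratios were 0.601 and 0.568 for the former and 0.645 and 0.624 for the latter. Among second set guides alone the shares were 19.3% of 275 and 18.6% of 1604. Of the 53 other guides against the 7 genes with 2 or more, 7 were lost in both tumours (13.2%). In both cultures 18 of the 513 (3.51%) and 171 of the 2843 (6.01%) were lost, and genes with a selected guide have by construction a guide that was kept there. Of the 60 guides lost in both tumours, 13 were lost in both cultures as well, and of the 328, 138 were. Among second set guides these were 11 of 53 and 127 of 298. The tumour shares thus hold unlike parts that were also lost in culture, and this difference was not tested.

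Of the 10 guides with the lowest larger tumour ratio, 9 are described here, and ADO sgRNA_35, C8orf82 sgRNA_3388 and MEIOC sgRNA_2817 were given above. sgRNA_3139 had 857 and 265 counts at day 0, 124 and 165 in culture and 2 and 0 in the tumours, which gave ratios of 0.747 and 0.832 in culture and of 0.00917 and 0 in the tumours. It targets MAB21L1, a gene of eye development. The guide sgRNA_2149 was counted 4689 and 890 times at day 0, 410 and 514 times at day 14, and 9 and 10 times in vivo, with culture ratios of 0.587 and 0.617 and tumour ratios of 0.00982 and 0.0057. It targets TXN2, the thioredoxin of mitochondria. For sgRNA_2001 the day 0 counts were 343 and 100, the culture counts 51 and 49 (ratios 0.795 and 0.64) and the tumour counts 0 and 2 (ratios 0 and 0.0124). It targets TYMP, which breaks down thymidine, and its day 0 share was low. sgRNA_1831 had 4772 and 539 counts at day 0, 411 and 484 in culture and 4 and 33 in the tumours, which gave ratios of 0.717 and 0.708 in culture and of 0.00532 and 0.0229 in the tumours. It targets NRBP2, a pseudokinase. The guide sgRNA_1987 was counted 3541 and 754 times at day 0, 379 and 503 times at day 14, and 18 and 119 times in vivo, with culture ratios of 0.679 and 0.755 and tumour ratios of 0.0246 and 0.0849. It targets USP53, a protein of tight junctions. For sgRNA_2621 the day 0 counts were 1506 and 644, the culture counts 188 and 821 (ratios 0.524 and 1.92) and the tumour counts 40 and 6 (ratios 0.0849 and 0.00666). It targets SCRIB, a scaffold of cell polarity. The guides ADO sgRNA_35, MAB21L1 sgRNA_3139 and TYMP sgRNA_2001 had fewer than 3 counts in each tumour, and 4 of the 68 guides had a tumour count of 0.

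How libraries are scaled decided many of the 68. By TMM 38 of them passed, and by scaling to the non-targeting guides 36 of the 68 passed among 48 in all. With the factors of the authors 37 passed, 36 of them among the 68, and 11 passed with column totals alone. All 4 ways selected 18 guides in 18 genes. In these the ratios are given in the order day 14 replicates 1 and 2, then tumours 1 and 2. The guide against AGFG2, a protein of vesicle transport, had 1.6, 1.31, 0.113 and 0.0148. For ERCC5, an endonuclease of nucleotide excision repair, they were 0.764, 0.926, 0.157 and 0.17. FOXRED2, a protein of the endoplasmic reticulum, stood at 0.854, 0.817, 0.132 and 0.134. FOXRED2 was even between libraries of a group. The guide against KIT, the receptor tyrosine kinase for stem cell factor, had 0.837, 1.32, 0.176 and 0.138. For NUDT18, a nucleotide hydrolase, they were 1.22, 0.755, 0.10 and 0.117. PIK3C2B, a class II phosphoinositide 3-kinase, stood at 0.965, 0.854, 0.126 and 0.138. KIT, NUDT18 and PIK3C2B lay between 0.10 (NUDT18, tumour 1) and 0.176 (KIT, tumour 1) in the tumours. The guide against PPP1R27, a regulatory subunit of protein phosphatase 1, had 0.833, 0.989, 0.153 and 0.135. For PTPRE, a receptor-type tyrosine phosphatase, they were 0.92, 0.789, 0.121 and 0.128. TMEM175, an ion channel of lysosomes, stood at 0.775, 0.836, 0.155 and 0.00173. TMEM175 was close to absent from tumour 2 and clearly present in tumour 1. The guide against UAP1L1 had 0.976, 1.64, 0.136 and 0.033. For ZNF597, a zinc finger protein, they were 1.09, 1.55, 0.0748 and 0.165. C8orf88 stood at 0.738, 0.894, 0.152 and 0.0961. The others named here were SFTPC sgRNA_1077, MAB21L1 sgRNA_3139, BCL10 sgRNA_1870, C8orf82 sgRNA_3388 and GPC1 sgRNA_2779.

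The genes of the 68 guides were of many kinds. Signalling was present with KIT, LRIG1, PTPRE, SMAD9, ARHGEF15, PIK3C2B, MAPK15, NRBP2, EIF4EBP2 and BCL10, and transport and membranes with ORAI2, STIM2, TMEM175, NIPAL2, CLTB, AGFG2 and WIPI2. Enzymes and redox proteins were ADO, TXN2, TYMP, MAT2B, NUDT18, SELENOO, TSTA3, PAOX, UAP1L1, GAD1 and FOXRED2. Proteins of DNA, RNA and chromatin were ERCC5, BRF1, GEMIN2, RBM23, LSM14B, TINF2, SMARCD1, ZNF205, ZNF250, ZNF597, ZBTB12 and MAB21L1. Cell shape, adhesion and matrix held SCRIB, USP53, MYO18A, CDK5RAP2, KIFC2, COL25A1, EDIL3 and GPC1. Further genes were BACE1, CSTB, SFTPC, FRG2, PPP1R27, MEIOC, C8orf82, C8orf88, CYHR1 and ARHGAP27P1-BPTFP1-KPNA2P3. STIM2 and ORAI2, a sensor and a channel of store-operated calcium entry, were singled out after their values had been seen. sgRNA_2332 had 14750 and 1774 counts at day 0, 1320 and 1431 in culture and 46 and 836 in the tumours, which gave ratios of 0.729 and 0.662 in culture and of 0.0193 and 0.184 in the tumours. The guide sgRNA_2414 was counted 2687 and 390 times at day 0, 179 and 258 times at day 14, and 54 and 8 times in vivo, with culture ratios of 0.504 and 0.609 and tumour ratios of 0.116 and 0.00897. In both genes 1 guide of 9 or 10 was selected, and the deeper loss was in tumour 1 for STIM2 and in tumour 2 for ORAI2.

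Lists of core cell machinery, chromatin and SUMO genes held few such guides or none. The SUMO pathway, which attaches small ubiquitin-like modifiers to proteins, had 0 of 58 guides. In both tumours 27 of its guides were lost, 18 of them in both cultures as well, and its median ratios were 0.406 and 0.382 in culture and 0.275 and 0.229 in the tumours. Genes of the ribosome, splicing and replication had 1 of 116 (GEMIN2), with 46 lost in both tumours and 39 of these in both cultures. p53 regulators had 0 of 50, with 17 lost in the tumours and 10 of these everywhere, and histone acetylation and methylation complexes 0 of 59, with 16 and 10. The BAF complex, the chromatin remodeller that contains SS18, had 1 of 30 (SMARCD1, 3.33%), with 12 and 6. Polycomb genes had 0 of 29 and SSX genes 0 of 20. Genes that have near-identical copies, where 1 guide may cut at several sites, had 1 of 124 (FRG2), with 40 lost in both tumours and 13 of these in both cultures. Over all targeting guides 1.99% met the rule. The rule asks for at least 0.5 in each culture, so lists low in culture had little room for selected guides. Median culture ratios were 0.331 and 0.319 for BAF and 0.433 and 0.500 for p53 regulators. They were 0.495 and 0.508 for ribosome, splicing and replication and 0.446 and 0.424 for near-identical copies. The histone (0.982 and 0.861), Polycomb (0.712 and 0.777) and SSX (0.647 and 0.701) lists were higher.

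The other lists held from 0 to 4 selected guides, at shares above and below the 1.99% of all targeting guides. The lists were written by hand and do not hold every library gene of their kind, so selected guides against SMAD9 (BMP signalling), KIT and MAPK15 (kinases, KIT also a surface receptor), EDIL3 and GPC1 (matrix and cell surface), NIPAL2 (transport) and ADO, TXN2, TYMP, PAOX, UAP1L1 and GAD1 (metabolism) fall outside them. The listed genes of metabolism and mitochondria had 4 of 164 guides (2.44%), against MAT2B, which regulates synthesis of S-adenosylmethionine, NUDT18, SELENOO, a mitochondrial selenoprotein, and TSTA3, which makes GDP-fucose. Transporters and channels had 2 of 119 (ORAI2 and TMEM175, 1.68%). The list of immune surface and interferon genes had 2 of 49 (4.08%), both against BCL10, an adaptor that is neither a surface protein nor an interferon gene. Shelterin, which protects telomeres, had 1 of 30 (TINF2, 3.33%). Listed kinases had 1 of 109 (PIK3C2B, 0.917%) and listed cell surface receptors 1 of 158 (PTPRE, 0.633%). Extracellular matrix and adhesion genes had 1 of 100 (COL25A1, 1.0%) and developmental transcription factors 1 of 39 (ZBTB12, 2.56%). The listed Wnt, hedgehog and BMP genes had 0 of 68. A count of 0 allows a share of up to 5.17% for the SUMO pathway, 6.0% for p53 regulators, 5.08% for histone complexes, 10.3% for Polycomb, 15.0% for SSX and 4.41% for Wnt, hedgehog and BMP genes, so these counts do not tell 1 list from another. In all, 16 of the 68 guides were on listed genes.

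By position, chromosome 8 had 13 of the 68 guides, of 294 kept there (4.42%), in 12 of its 30 library genes. The share was higher on chromosomes 10, 13 and 14. Chromosome 10 had 6 of 117 (5.13%), chromosome 13 had 4 of 48 (8.33%), and chromosome 14 had 4 of 70 (5.71%), in 4 of 7 genes. Chromosomes 19 and X had 0 of 208 and 0 of 70, which allow shares of up to 1.44 and 4.29%. On chromosome 8, 9 of the 13 lay in genes that start beyond 140 Mb in GRCh38.p14, a limit set after the positions had been seen. They targeted C8orf82 (2 guides), CYHR1, KIFC2, MAPK15, NRBP2, SCRIB, TSTA3 and ZNF250, which is 8 of the 15 library genes there. Of 150 kept guides in that stretch 9 were selected (6.0%), against 59 of 3274 elsewhere (1.80%). Loss from both tumours was also more frequent there, at 24.0% against 12.8%. Among second set guides 8 of 85 were selected in the stretch (9.41%) and 45 of 1847 elsewhere (2.44%), while 40.0% and 20.0% were lost from both tumours. Their median culture ratios were also lower, at 0.496 and 0.484 against 0.663 and 0.649 elsewhere, so these guides were lower in the cultures as well. Genes in the stretch are neighbours, and the number of copies of the stretch in these cells was not measured.

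The opposite pattern, under 0.25 in both cultures and at least 0.5 in both tumours, was met by 3 guides, none of them non-targeting. ARHGAP27P1-BPTFP1-KPNA2P3 sgRNA_3322 had 3599 and 867 counts at day 0, 115 and 91 in culture and 1365 and 1076 in the tumours. EPS8L1 sgRNA_2769 had 7080 and 595 counts at day 0, 117 and 24 in culture and 596 and 3591 in the tumours. SMARCD1 sgRNA_1151 had 3573 and 641 at day 0, 116 and 31 in culture and 772 and 1122 in the tumours. Guides against SMARCD1, a BAF subunit, and against ARHGAP27P1-BPTFP1-KPNA2P3 thus appeared in both patterns, 1 guide each way. The SMARCD1 guide among the 68, sgRNA_1153, had 6807 and 1256 counts at day 0, 1429 and 1613 in culture and 303 and 313 in the tumours. Guides lost only in the tumours outnumbered guides lost only in culture by 68 to 3, by 38 to 6 with TMM and by 37 to 7 with the normalized table of the authors. Tumour loss was also the more frequent over all 3424 targeting guides. Of these, 456 (13.3%) were under 0.25 in both tumours and 189 (5.52%) in both cultures.

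Guide counts were also fitted with edgeR's quasi-likelihood test over all 3607 guides. The rule had used each of these contrasts, so the calls are a description and nothing about the 68 is read from them. Between in vivo and day 14, 0 of the 68 guides were lower at an adjusted p under 0.05, as were 0.0% of all guides. At an unadjusted p under 0.05, 52 were lower, beside 5.54% of all guides. DESeq2 called 30 of the 68 lower after adjustment, beside 2.11% of all guides. Their median log2 fold change was -2.28 and that of all targeting guides was 0.09. Between in vivo and day 0, edgeR called 1 of the 68, TXN2 sgRNA_2149 (adjusted p 0.0426), beside 1.14% of all guides, and 61 without adjustment, beside 12.8%. Their median log2 fold change was -2.49. DESeq2 called 56 of the 68, beside 10.3% of all guides. Each edgeR fit with a library left out rests on 1 library in a group, so the calls of these fits are not given singly. Between day 14 and day 0, 0 of the 68 were lower at either level, beside 0.0% of all guides adjusted and 7.18% unadjusted, and the median log2 fold change was -0.26. DESeq2 also called 0 of them, beside 3.47% of all guides. With 2 libraries a group and a common dispersion of 0.303, edgeR passed few single guides in any contrast.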

How the data were processed

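The 6 libraries of HS-SY-II Cas9 cells were 2 each of day 0, day 14 culture and tumour. The deposited read counts per guide are whole numbers, which the authors made by mapping paired-end reads to their guide library with MAGeCK. Besides MAGeCK, hg38 is named in the submitters' processing notes, and versions of both were not given in the sources used here. A second deposited table holds normalized signal values, each count column times 1 factor (0.320, 1.45, 1.45, 1.17, 1.41 and 0.865 in library order). How the factors were set was not stated. It served as an alternative. Columns were matched to samples by name.

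CPM used the column totals, and the rule was applied as stated in the report. The edgeR fit (version 4.0.16, R 4.3.3) used TMM and quasi-likelihood tests (1 fit of all libraries, Benjamini-Hochberg over 3607 guides), and the rule and fit were tested on simulated data. DESeq2 1.42.0, other scalings, other limits, a replicate block and each library left out were alternatives. Tables were made with Python 3.11.15, pandas 2.3.3 and scipy 1.17.1. Intervals and limits cover counting only, since PCR reads carry no molecular identifiers and guides of 1 gene share a target.

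By the methods the cells of each transduction gave a day 0 aliquot and both arms. Deviations from the group means of libraries with the same number correlated at 0.07 between day 0 and day 14. Tumours correlated with day 0 at 0.00104 and with day 14 at 0.00284, and with 2 pairs the numbers were not taken to pair the libraries.

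The guides, gene lists and tests were chosen with earlier results of these data known. Named genes were those with 2 or more selected guides, ordered by number and by share of kept guides, with all guides of the first 6, the 10 guides with the lowest larger tumour ratio, and the 5 guides on each side of each limit. The 348 gene names were matched to RefSeq (GRCh38.p14), 336 by current and 12 by older symbols. Guide sequences were not used here, and 1 selected guide is not reported here by gene.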

Additional observations from a re-analysis of the deposited data

Results flagged for a closer look

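Among the selected guides, 12 lay above their day 0 mean in both cultures and below it in both tumours, so that all libraries of 1 arm moved one way and all libraries of the other arm the opposite way. The tumour side of this was set by the selection, and the difference was not tested. They include both BCL10 sgRNA_1870 (1.33 and 1.05 in culture, 0.173 and 0.0622 in the tumours) and MEIOC sgRNA_2820 (1.44 and 1.55, then 0.0211 and 0.214), and the SFTPC guide that rests on day 0 replicate 2. With the kept limit raised to 1 the same 12 guides are selected, and no gene then has more than 1. A rise in both cultures was common in the library. Of 3424 targeting guides, 897 had a smaller culture ratio from 1 to 1.5 and 312 had one above 1.5. The non-targeting guides had median culture ratios of 1.46 and 1.41. The rise of the 12 in culture is therefore not particular to the selected guides.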

How the results depend on the processing

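The number of selected guides (68) became 38 with TMM library sizes, 37 with the authors' normalized table, 16 with a loss limit 0.5 times as high, 30 with kept from 0.75, 12 with kept from 1 and 202 with group means. As a share of targeting guides (1.99%) these were 1.11, 1.08, 0.467, 0.876, 0.350 and 5.90%, and scaling to the non-targeting guides gave 1.40%. Leaving out a library gave 63 to 253 guides, or 1.85 to 7.16%. Genes with 2 or more (7) became 3 with TMM, 2 with scaling to non-targeting guides, 0 with the authors' table, 1 with a loss limit 0.5 times as high, 0 with kept from 0.75 or from 1, 43 with group means and 7 to 54 without a library. Non-targeting guides selected were 0 under every setting with both tumours, and 0 to 8 with a library left out. The opposite pattern (3 guides) gave 6 with TMM, 7 with the authors' table, 0 with a loss limit 0.5 times as high or kept from 1, 1 with kept from 0.75, 19 with group means and 2 to 13 without a library. Of the 68, those called lower in vivo than at day 0 (1, beside 41 of all guides) were 37 with scaling to non-targeting guides (323 of all), 56 with DESeq2 (370 of all), 0 with 2 groups alone, 0 with the replicate block and 0 to 52 without a library (0 to 624 of all). Those called lower in vivo than at day 14 (0) were 30 with DESeq2 (76 of all), 0 with the replicate block and 0 to 39 without a library (0 to 342 of all). Those called lower at day 14 than at day 0 (0, beside 0 of all guides) stayed at 0 under every setting with no library left out. DESeq2 and the fit of 2 groups alone did call guides outside the 68 lower in that contrast. The rule had required a ratio of at least 0.5 in each culture, so the selection itself left little room for such calls among the 68. Depth limits the lowest values: 5 selected guides had fewer than 10 counts in both tumours, where the order of the ratios rests on a few reads.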
